A study of Mus musculus with 57 samples.

Results

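Transcript levels of the diaphragm and the lung of wt mouse embryos were compared at E15.5, embryonic days being counted from the vaginal plug. Every gene with a mean of at least 1 TPM (the count of a gene divided by its exon length and scaled to a fixed sum per library) in either tissue entered the comparison, which kept 18984 of the 56860 genes listed. The comparison used 8 of the 57 RNA-seq libraries of the series, namely 4 of wt diaphragm and 4 of wt lung. All embryos were kept on the 129/Sv background, and each library was made from polyA-selected bulk RNA. The labels number the 4 libraries of a group as replicates. The study's methods call them biological replicates, and its legends speak of tissues from 4 wt embryos. Where the same pair of tissues is given for Hoxa5-/- embryos, these were also E15.5 embryos of the 129/Sv background with 4 libraries per tissue, and they carried the null allele Hoxa5tm1Rob, which the wt embryos lack. Which parts of each organ were taken is not given in the sources used here.

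The diaphragm is a sheet of skeletal muscle around a central tendon. Its muscle precursors migrate in from the cervical somites, while its connective tissue, its central tendon and much of its mesothelial covering derive from the pleuroperitoneal folds, and the phrenic nerve innervates it from the cervical spinal cord. The lung is built from an endodermal epithelium that branches under signals exchanged with the surrounding mesenchyme, and at this stage it is rich in growing blood vessels. Each organ is therefore a mixture of cell types, and bulk RNA cannot tell fewer cells of a type from less RNA of its genes per cell.

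The 4 diaphragm libraries held 23163454 to 36992191 counts on genes and the 4 lung libraries 29702712 to 45528006. The 20 most abundant genes took 8.62% to 11.5% of the counts in diaphragm libraries and 5.56% to 5.67% in lung libraries. Fold changes were therefore fitted on raw counts scaled by TMM, which sets the bulk of genes equal between libraries, and not on TPM. All fold changes are log2 values of diaphragm over lung with their standard errors, so that positive values mean a higher level in diaphragm, and lists of 4 TPM values run from replicate 1 to replicate 4. A gene was called at an adjusted p under 0.05 in edgeR's quasi-likelihood test and a fold of at least 1.5. Embryo sex was mixed in both tissues, with Xist high in 1 of 4 diaphragm and 2 of 4 lung libraries. The libraries of the tissues were said not to overlap when every TMM-scaled level of one tissue lay above every level of the other.

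Some diaphragm libraries stood apart. Replicate 3 held transcripts of the lung epithelium, with Nkx2-1 at 57.1 TPM against 0.0698 to 0.642 TPM in the other 3 diaphragm libraries and 403 to 564 TPM in lung. It also held the most transcripts of liver (summed TPM of 17 hepatocyte genes 12383 against 2223 to 2683 in the other 3) and of nucleated red cells. Replicates 1 and 2 held Krt5, a keratin of stratified epithelium, at 46.2 and 75.6 TPM against 0.229 and 1.04 TPM in replicates 3 and 4. Replicate 4 had the least epithelium, with Epcam at 1.58 TPM. Among lung libraries, replicate 3 had the highest surfactant transcripts and a summed TPM of cardiac genes of 273 against 96.1 to 133, and replicate 1 held Alb at 23.4 TPM against 1.88 to 4.38 TPM. Where leaving these libraries out changed the call of a gene described, the value without them is given. For lists, the counts and medians without these libraries are given for some lists only. What these transcripts add to a result was not tested otherwise.

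Over a large part of the genes the tissues differed. With edgeR 6915 of 18984 genes were called (36.4%), of which 3959 were higher in diaphragm (20.9%) and 2956 higher in lung (15.6%). The counts called for each list below are to be read beside these shares. At a minimum fold of 8 the counts were 1222 (6.44%) and 371 (1.95%), so that large differences lay mostly on the side of the diaphragm. The libraries of the tissues did not overlap for 10550 genes (55.6%). Without diaphragm replicate 3 the counts were 4042 (21.3%) and 3086 (16.3%), and without diaphragm replicates 1 and 2 they were 3627 (19.1%) and 2445 (12.9%). Scaling by library totals in place of TMM moved the median log2 fold change of all tested genes from -0.01 to -0.25. It turned the split to 3190 genes higher in diaphragm and 4690 higher in lung. In place of counts, limma on log2(TPM + 1), which compares shares of libraries, gave 2812 and 4856. Fold changes below are relative to the TMM scale. Among the genes named below, Spry1 (0.42), Spry2 (0.42), Met (0.44), Dag1 (0.47), Pdpn (0.47), Acta2 (0.42) and mt-Co1 (0.57) were called higher in diaphragm on the TMM scale and fell under the fold minimum with library totals, while Actb (-0.74), Eln (-0.86) and Lyve1 (-0.60) were then called higher in lung. Without diaphragm replicate 1 Eln was also called (-0.98).

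**Figure D1:**
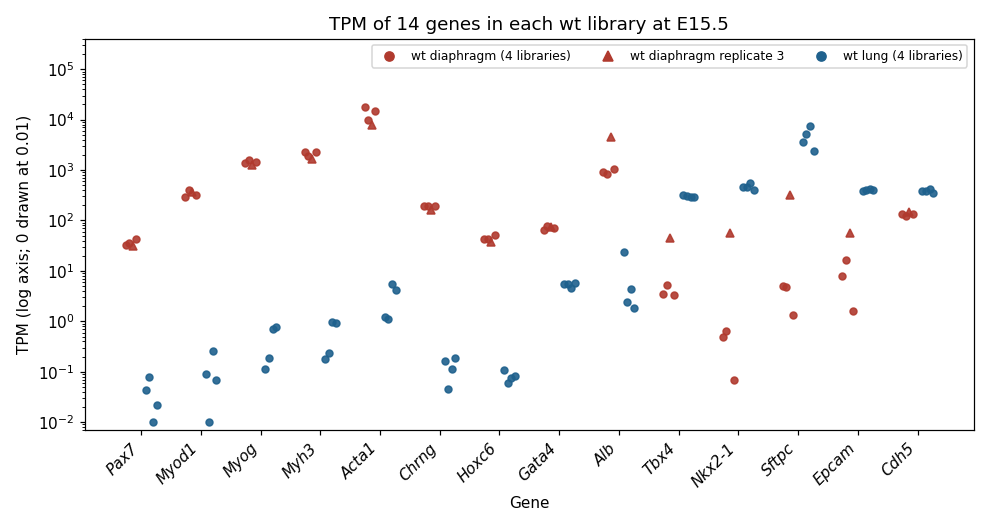
TPM of 14 genes in each of the 8 wt libraries, on a log axis with 0 drawn at the bottom, diaphragm and lung in separate colours and diaphragm replicate 3 as a triangle. Muscle genes such as Myog lie between 1270 and 1556 TPM in diaphragm and below 1 TPM in lung, whereas for Nkx2-1 and Sftpc the triangle lies between the other 3 diaphragm libraries and the lung.

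The regulators of myogenesis were almost wholly on the side of the diaphragm. Of 18 genes listed, 16 were higher in diaphragm and none higher in lung, with a median log2 fold change of 6.57 against -0.01 over all genes tested. Factors of every step from precursor to differentiating fibre were present in diaphragm. Pax7, the factor of muscle stem and progenitor cells, was at 32.7, 36.3, 31.4 and 42.5 TPM in diaphragm and 0.0431, 0.0802, 0 and 0.0221 TPM in lung, and Pax3, a factor of migrating precursors, was at 4.39 to 5.47 TPM in diaphragm without a count in lung, which makes it at least 501-fold higher in diaphragm (against 3 counts over the lung libraries). Myf5 was at 29.6 to 41.6 TPM in diaphragm and 0.0573 to 0.323 TPM in lung.

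Further along the lineage the levels were much higher. Myod1, which commits cells to the muscle fate, was at 298, 397, 367 and 318 TPM in diaphragm and 0.0904, 0, 0.257 and 0.0695 TPM in lung. Myog (chr1:134217727-134220286 in GRCm39), which drives terminal differentiation, was at 1364, 1556, 1270.4 and 1475 TPM against 0.113, 0.189, 0.719 and 0.779 TPM. Both were above every lung library in each diaphragm library, by log2 fold changes of 11.97 ± 0.25 and 12.05 ± 0.31 (edgeR adjusted p = 4.03e-09 and 1.01e-08). Myf6, a factor of maturing fibres, was at 231, 152, 129.7 and 233 TPM and 0.200, 0, 0 and 0.205 TPM, with a log2 fold change of 10.99 ± 0.47. With single lung libraries left out, these fold changes against a near-empty tissue reached 12.76 for Myod1 (without replicate 3), 11.65 for Myf6 (without replicate 1) and 10.68, from 10.04, for Pax7 (without replicate 2). Lbx1, Msc and Pitx3, factors of muscle precursors or fibres, were 8-fold or more higher in diaphragm, whereas Mef2a (0.53 ± 0.09) was under the fold minimum, which it passed without diaphragm replicate 3 (0.59) or lung replicate 3 (0.59), and Eya1 (0.19 ± 0.11) overlapped between the tissues. Lbx1, which acts in migrating precursors, had a log2 fold change of 9.22 ± 0.28, and 9.82 without lung replicate 1.

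The promoter of Myog is shown because the gene had one of the highest levels among these factors. The 250 bases before its start, taken from RefSeq on GRCm38.p6 (chr1:134289754-134290003, plus strand), read as follows, with letters of the form CTANNNNTA, the core of a MEF2 site, in capitals.
Myog: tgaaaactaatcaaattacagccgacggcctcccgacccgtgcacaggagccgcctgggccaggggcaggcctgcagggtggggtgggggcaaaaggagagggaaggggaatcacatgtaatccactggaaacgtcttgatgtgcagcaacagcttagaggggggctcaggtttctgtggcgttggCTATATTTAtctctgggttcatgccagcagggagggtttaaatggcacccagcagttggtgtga
Both strands were searched. The same letters were found in 18.96% of 32851 mouse promoters of this length, in 35.8% of 81 promoters of genes on the muscle lists at 8-fold or more higher in diaphragm (71 of 109 such genes had a RefSeq entry) and in 0 of 25 promoters of genes on the epithelial lists at 8-fold or more higher in lung (20 of 32 genes had one). A match is a description of letters and not evidence of a bound site.

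Genes of myoblast fusion were split between those made by muscle and those used in many cells. Of 11 tested, 7 were higher in diaphragm and 3 in lung. The fusogens Mymk and Mymx were at 327 to 413 and 175 to 227 TPM in diaphragm and at most 0.343 and 0.116 TPM in lung, with log2 fold changes of 11.21 ± 0.25 and 11.83 ± 0.25, and Cdh15, the muscle cadherin, reached 10.31 ± 0.22. Higher in lung were the engulfment and fusion genes Dock1 (-0.66 ± 0.05) and Dock5 (-0.66 ± 0.09), and Igsf5, an immunoglobulin-family junction protein, at 4.98 to 6.53 TPM in lung (-4.01 ± 0.55, and -5.33 without diaphragm replicate 3).

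Sarcomere genes differed widely, and the thick filament list had the highest median of the 38 lists. All 20 thick filament genes and 24 of 25 thin filament and Z-disc genes were higher in diaphragm, with median log2 fold changes of 9.62 and 7.20. Acta1 (chr8:124618508-124621490 in GRCm39), the skeletal alpha-actin, was the most abundant of them, at 18193, 9706, 7827 and 14568 TPM in diaphragm and 1.21, 1.10, 5.52 and 4.13 TPM in lung (12.43 ± 0.69). Actc1, the actin of heart and of embryonic skeletal muscle, was at 14182, 10878, 9124 and 13389.9 TPM and 165, 143, 224 and 167 TPM (6.41 ± 0.24). In both cases diaphragm replicates 1 and 4 were the highest, which also held for most other contractile genes.

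The developmental myosin heavy chains were the most abundant ones. Embryonic Myh3 was at 2301, 1944, 1645 and 2329.6 TPM in diaphragm and neonatal Myh8 at 2365, 1426, 1098 and 2264 TPM, and these ranges overlapped. Slow Myh7 was at 109.1 to 162 TPM, while the adult fast chains were below Myh3 and Myh8 in every diaphragm library, with Myh4 at 66.6 to 155 TPM, Myh2 at 38.8 to 87.3 TPM and Myh1 at 11.9 to 17.7 TPM. In lung Myh7 reached 1.86 to 10.9 TPM with its highest value in replicate 3, and of the other 5 chains Myh8 was the highest with 0.335 to 1.10 TPM. The log2 fold changes were 12.17 ± 0.58 for Myh3, 11.83 ± 0.58 for Myh8 and 5.05 ± 0.52 for Myh7. Without lung replicate 3 those of Myh7 and Myh2 (11.18) became 5.70 and 11.94, and without lung replicate 4 that of Myh1 (9.31) became 9.92.

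Other parts of the sarcomere followed. The regulatory light chain Mylpf was at 5718 to 11293 TPM in diaphragm and 9.51 to 15.6 TPM in lung (9.72 ± 0.35). Mybpc1, the slow myosin-binding protein C, had the largest fold change of these lists (13.01 ± 0.61). Fast and slow troponins were both high, with Tnnt3 at 1948 to 4393 TPM, Tnni2 at 868 to 2183 TPM, Tnnc1 at 1072 to 1323 TPM and Tnnt1 at 707 to 1023 TPM. Tnnc2, the fast troponin C, was the exception at 1.73 to 3.66 TPM with 58 counts over the 4 diaphragm libraries and 2 in lung, a ratio of 42.3 (95% interval 11.2 to 357) in which the interval covers counting error only. Its fitted log2 fold change of 5.06 became 7.22 without lung replicate 4. Tpm3, a tropomyosin used in muscle and other cells, did not differ beyond the spread of the libraries (-0.08 ± 0.28). The giant proteins Ttn (8.69 ± 0.58, and 9.34 without lung replicate 3) and Neb (9.09 ± 0.28), which lay out the filaments, were higher in diaphragm, as was the Z-disc gene Actn2 at 1133 to 1886 TPM (9.33 ± 0.56, and 10.01 without lung replicate 3).

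The machinery of excitation and contraction was in place as well. All 21 genes on this list were higher in diaphragm, 18 of them 8-fold or more, with a median log2 fold change of 6.13. Ryr1, the calcium release channel of the sarcoplasmic reticulum, was at 169, 157, 124 and 191 TPM in diaphragm and 0.447, 0.293, 0.421 and 0.575 TPM in lung (8.85 ± 0.26). Cacna1s, the voltage sensor coupled to it, was at 51.0 to 78.6 TPM and 0 to 0.0395 TPM (11.83 ± 0.33). The calcium pump Atp2a1 (9.89 ± 0.37), the calcium store proteins Casq1 (6.13 ± 0.42) and Casq2 (8.41 ± 0.49) and the pump inhibitor Sln (9.77 ± 0.57, and 10.97 without lung replicate 3) differed in the same direction. Smaller differences belonged to genes also present in lung, such as Jph2 at 26.5 to 31.2 TPM in lung (2.48 ± 0.17) and Ryr3 at 3.81 to 6.08 TPM (2.498 ± 0.23).

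At the neuromuscular junction the muscle side of the synapse was higher in diaphragm. Of 14 genes 11 were higher in diaphragm and 2 in lung. The acetylcholine receptor subunits of embryonic muscle led. Chrng, the subunit that Chrne replaces later, was at 190.0, 191, 160.4 and 197 TPM in diaphragm and 0.162, 0.0451, 0.115 and 0.187 TPM in lung (10.80 ± 0.21, edgeR adjusted p = 4.03e-09), and Chrna1 was at 70.3, 81.9, 63.5 and 81.9 TPM and 0.211, 0.193, 0.109 and 0.148 TPM (9.05 ± 0.17). Chrne itself was at only 0.669 to 2.11 TPM in diaphragm, so that per length Chrng was far above it in every diaphragm library. Chrnd (10.24 ± 0.22), the receptor kinase Musk (8.01 ± 0.18), its adaptor Dok7 (4.11 ± 0.15) and the clustering protein Rapsn (6.39 ± 0.14) were also higher in diaphragm.

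Genes of the nerve side or of wide use behaved otherwise. Agrn, the nerve-derived clustering signal that epithelia also make, was at 117 to 152 TPM in diaphragm and 293 to 345 TPM in lung (-0.90 ± 0.09), and Etv5, a junction factor that lung tip epithelium also uses, was at 47.6 to 92.0 and 259 to 333 TPM (-1.98 ± 0.18). Lrp4, the agrin receptor, was at 31.7 to 36.2 TPM and 40.6 to 63.0 TPM, and its levels overlapped after scaling (-0.16 ± 0.14).

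The receptor promoters are shown because muscle factors of the MYOD family bind E-boxes in such genes. In the 250 bases before the starts of Chrng (chr1:87205561-87205810, plus strand) and Chrna1 (chr2:73580339-73580588, minus strand), from RefSeq on GRCm38.p6, capitals mark the E-box CAGCTG, which reads the same on both strands.
Chrng: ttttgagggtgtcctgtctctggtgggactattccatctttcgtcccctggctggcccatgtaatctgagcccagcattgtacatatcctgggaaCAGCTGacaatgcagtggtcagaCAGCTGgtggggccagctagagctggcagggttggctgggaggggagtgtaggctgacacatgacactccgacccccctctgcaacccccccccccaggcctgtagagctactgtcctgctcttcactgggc
Chrna1: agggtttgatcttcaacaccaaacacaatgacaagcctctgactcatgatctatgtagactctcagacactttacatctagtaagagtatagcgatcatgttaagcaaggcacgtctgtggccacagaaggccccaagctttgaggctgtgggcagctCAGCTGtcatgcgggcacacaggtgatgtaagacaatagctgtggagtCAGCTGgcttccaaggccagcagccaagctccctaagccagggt
Each held 2 copies. The letters CAGCTG were found in 13% of the 32851 promoters, in 40.74% of the 81 muscle-list promoters and in 12% of the 25 epithelial-list promoters.

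Muscle metabolism and the membrane complex were also on the side of the diaphragm. Of 19 metabolic genes 18 were higher there, with a median log2 fold change of 5.89. Ckm, the muscle creatine kinase, was at 1664, 785, 584 and 1327 TPM in diaphragm and 2.69, 2.29, 6.76 and 2.84 TPM in lung (8.57 ± 0.56), and Eno3, the muscle enolase, was at 891 to 2078 TPM and 26.7 to 40.7 TPM (5.89 ± 0.35). Mb, myoglobin, was still low at 13.98 to 28.7 TPM (6.25 ± 0.44). Hjv, the hemojuvelin of muscle and liver, was at 243 to 360.2 TPM and 0.0415 to 0.236 TPM (11.64 ± 0.29). Phka1, a phosphorylase kinase subunit, was the exception (0.41 ± 0.11).

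All 15 genes of the dystrophin complex and the membrane around it were higher in diaphragm (median log2 fold change 4.39). Dmd, dystrophin, was at 14.5, 11.8, 10.3 and 16.4 TPM in diaphragm and 5.60, 6.14, 6.96 and 5.93 TPM in lung (1.42 ± 0.16), a modest difference beside the muscle-restricted sarcoglycan Sgca (7.87 ± 0.29), the caveolin Cav3 (8.51 ± 0.39) and the repair protein Trim72 (9.21 ± 0.27). Dag1, the dystroglycan that also anchors epithelia, was at 294 to 341 TPM and 216 to 300.2 TPM (0.71 ± 0.12).

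**Figure D2:**
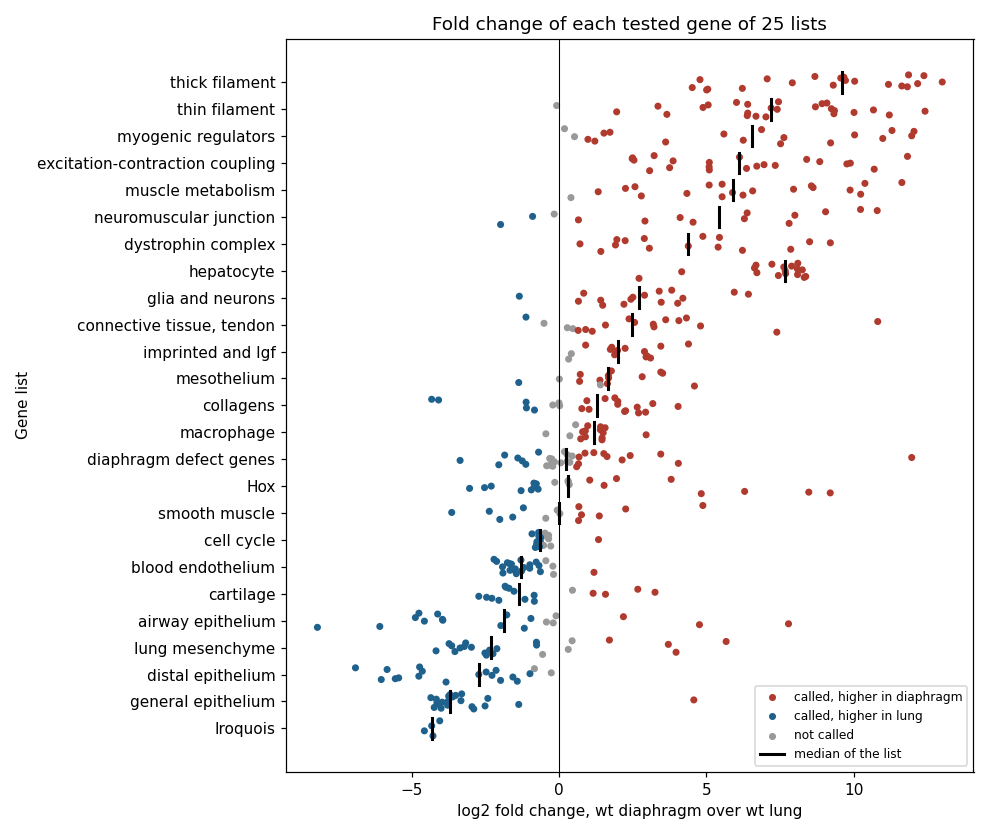
Log2 fold change (diaphragm over lung) of every tested gene of 25 lists, 1 row per list, with a black bar at the median. Red points were called higher in diaphragm, blue points higher in lung and grey points not called. The muscle lists lie almost wholly to the right of 0, the epithelial and lung mesenchyme lists mostly to the left, and lists such as smooth muscle and Hox on both sides.

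Outside the lists, the largest fold changes toward diaphragm belonged to further muscle genes. Vgll2, a cofactor of TEAD factors in muscle, was at 272, 304, 281 and 265 TPM in diaphragm and 0 to 0.0784 TPM in lung, with 2 counts over the 4 lung libraries. Mstn, the inhibitor of muscle growth, was at 27.03, 35.3, 28.9 and 32.6 TPM, and Fgf6, a growth factor of myogenic cells, was at 12.99, 18.2, 17.3 and 14.3 TPM. Neither had a count in lung, which makes them at least 1345-fold and 1166-fold higher in diaphragm, as were 2310002L09Rik (at least 1073-fold) and the somite repressor gene Ripply1 (at least 684-fold).

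Other genes named by the same rule had a few counts in lung. The ratios of counts were 7995 (95% interval 1434 to 315838) for Lrtm1, 3998 (95% interval 1106 to 33023) for the gap junction gene Gjd4 and 3758 (95% interval 674 to 148504) for the Z-disc gene Myoz3. The log2 fold changes of the Z-disc gene Myot, of Atp1b4, a muscle relative of the sodium pump's beta subunits, of Arhgap36 and of Tceal7 were 11.44 ± 0.39, 12.20 ± 0.56, 11.24 ± 0.46 and 11.74 ± 0.46, with Tceal7 at 755 to 1348 TPM and Arhgap36 at 318 to 669 TPM in diaphragm. Fitted values against so few lung counts moved with single lung libraries, to 13.07 for Atp1b4 and 13.71, from 11.59, for Gjd4 without replicate 3, to 12.54, from 11.22, for Myoz3 without replicate 1 and to 13.73, from 12.30, for Lrtm1 without replicate 4. By difference in level, the genes furthest above lung were Acta1, Actc1, the noncoding RNA H19, Mylpf and the mitochondrial gene mt-Co1, at 18088 to 19974 TPM in diaphragm and 13174 to 13349 TPM in lung (0.82 ± 0.07).

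Connective tissue genes were mostly higher in diaphragm but not as a block. Of 18 listed, 14 were higher in diaphragm and 1 in lung, with a median log2 fold change of 2.47. Osr1, a factor of muscle connective tissue fibroblasts, was at 142, 153, 98.6 and 111 TPM in diaphragm and 31.7, 26.2, 18.96 and 28.5 TPM in lung (2.57 ± 0.19). Tnmd, tenomodulin of differentiated tendon, was at 232, 241, 184 and 332 TPM and 2.11, 1.60, 0.618 and 2.97 TPM (7.39 ± 0.35). The small proteoglycans Dcn (3.62 ± 0.17), Lum (4.07 ± 0.17) and Kera (10.82 ± 0.51, and 11.79 without lung replicate 4) lay on the same side.

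Scx, the early tendon factor, did not follow Tnmd. It was at 40.7, 42.6, 40.6 and 41.4 TPM in diaphragm and 40.3, 38.5, 44.9 and 44.5 TPM in lung, and its log2 fold change of 0.28 ± 0.08 was under the fold minimum. Mkx, another tendon factor, was likewise not called (0.47 ± 0.13). Fmod, the proteoglycan fibromodulin, was the one member higher in lung, at 163 to 201 TPM in diaphragm and 415 to 519 TPM in lung (-1.12 ± 0.08).

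Collagens divided by type. Of 22 tested, 14 were higher in diaphragm and 5 in lung. The fibrillar collagen Col1a1 was at 4564, 4533, 3443 and 4344 TPM in diaphragm and 1196, 1044, 1013 and 1118 TPM in lung (2.26 ± 0.12), and Col3a1 (1.90 ± 0.11), Col5a1 (1.997 ± 0.09), Col12a1 (2.66 ± 0.10) and Col14a1 (2.23 ± 0.14) lay on the same side. The ubiquitous basement membrane chains Col4a1 (-0.21 ± 0.10) and Col4a2 (0.02 ± 0.09) overlapped between tissues, whereas the chains Col4a3 (-4.09 ± 0.43) and Col4a4 (-4.32 ± 0.51, and -5.26 without diaphragm replicate 3), typical of specialised basement membranes, were higher in lung. Col18a1 (-0.83 ± 0.07), Col13a1 (-1.10 ± 0.12) and Col25a1 (-1.11 ± 0.10) were the other chains higher in lung.

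The mesothelium covers both organs, and its markers were present in both. Their summed TPM was 509.9 to 796 in diaphragm and 399 to 619 in lung libraries, and 11 of 14 members were higher in diaphragm with 1 higher in lung (median log2 fold change 1.66). With diaphragm replicates 1 and 2 left out, 9 members were higher in diaphragm and the median was 1.33. Wt1, a factor of mesothelium and of the pleuroperitoneal folds, was at 44.7, 57.3, 35.4 and 40.2 TPM in diaphragm and 5.39, 4.43, 4.59 and 5.62 TPM in lung (3.46 ± 0.16). Lrrn4 (3.52 ± 0.14), Upk3b (1.68 ± 0.17) and Bnc1 (2.82 ± 0.17) were higher in diaphragm in every library. Krt19, a keratin that lung epithelium also makes, was the member higher in lung (-1.37 ± 0.37). Msln, mesothelin, overlapped between tissues (1.41 ± 0.62). Lung replicate 3 held 24.2 TPM of it against 3.29 to 6.26 TPM in the others, and it was called without that library (2.49) or without diaphragm replicate 3 (1.62).

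Genes linked to diaphragmatic defects in mice or patients were found on both sides. Of 32 genes 12 were higher in diaphragm, 7 higher in lung and 13 not called, and the list's median log2 fold change of 0.23 turned to -0.01 with library totals. Gata4 (chr14:63436371-63509141 in GRCm39), a factor of the pleuroperitoneal folds, was at 63.7, 78.6, 73.4 and 71.0 TPM in diaphragm and 5.56, 5.39, 4.59 and 5.80 TPM in lung (4.05 ± 0.08, edgeR adjusted p = 4.03e-09), whereas Gata6 was at 24.8 to 33.7 TPM and 42.1 to 46.3 TPM and not called (-0.30 ± 0.09). Hgf, the ligand that guides migrating muscle precursors, was at 2.55 to 4.27 TPM and 0.522 to 0.820 TPM (2.42 ± 0.21), and its receptor Met at 27.2 to 32.3 TPM and 20.8 to 24.3 TPM (0.68 ± 0.08).

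Factors and guidance genes of mesenchyme were among the 7 members higher in lung. Tcf21, a mesenchymal factor, was at 12.2, 24.7, 34.2 and 4.60 TPM in diaphragm and 195, 216, 339.9 and 189 TPM in lung (-3.36 ± 0.51). The guidance receptors Robo1 (-1.13 ± 0.11) and Robo2 (-2.04 ± 0.25), their ligand Slit3 (-1.25 ± 0.16), the nuclear receptor Nr2f2 (-1.40 ± 0.12) and Lrat, which esterifies retinol (-1.84 ± 0.34), were also higher in lung. Fgfrl1, an FGF receptor relative required for diaphragm muscle, was higher in diaphragm at 184 to 273 TPM against 86.0 to 96.5 TPM (1.63 ± 0.14).

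Epithelial genes formed the counterpart in lung. Of 21 general epithelial genes 20 were higher in lung and 1 in diaphragm, with a median log2 fold change of -3.70, and -4.19 without diaphragm replicate 3. Their summed TPM was 2665 to 3676 in lung, 507 in diaphragm replicate 3 and 83.2 to 279 in the other 3 diaphragm libraries. Epcam, the epithelial adhesion molecule, was at 7.80, 16.1, 57.2 and 1.58 TPM in diaphragm and 378, 399.6, 423 and 399.6 TPM in lung (-4.00 ± 0.79, and -5.27 without replicate 3), and Cdh1, E-cadherin, at 10.1, 16.2, 42.5 and 2.19 and 249.7, 280.4, 399 and 243 TPM (-3.77 ± 0.69, and -4.66). The level in diaphragm thus varied far more between libraries than the level in lung. Cdhr5, a protocadherin of microvilli, was the member higher in diaphragm at 0.734 to 2.08 TPM against 0.0436 to 0.103 TPM (4.58 ± 0.50).

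Genes of the distal, surfactant-making epithelium were also higher in lung. Of 19 tested 17 were higher in lung and none in diaphragm (median log2 fold change -2.72, and -3.19 without diaphragm replicate 3). With diaphragm replicates 1 and 2 left out, 15 were higher in lung and the median was -2.41. Sftpc (chr14:70758389-70761521 in GRCm39), surfactant protein C, was at 3669, 5087, 7607 and 2443 TPM in lung and 5.07, 4.83, 322 and 1.34 TPM in diaphragm (-5.56 ± 1.54, edgeR adjusted p = 0.0119), and without diaphragm replicate 3 its log2 fold change was -10.04. Nkx2-1, the factor that specifies lung epithelium, gave -4.76 ± 1.36 with all libraries and -9.98 without that replicate, Sftpb -5.83 ± 1.17 and -9.79, and Lamp3, a lamellar body protein, -6.03 ± 1.02 and -9.55. Without diaphragm replicates 1 and 2, which leaves replicates 3 and 4, neither Sftpc (-4.59, edgeR adjusted p = 0.054) nor Nkx2-1 (-3.79, adjusted p = 0.0629) was called. The fold changes with all libraries therefore give the ratio to a diaphragm mean that 1 library dominates. Slc34a2, the phosphate transporter of alveolar type 2 cells, was at 13.5, 31.5, 127 and 6.94 TPM in lung (-6.91 ± 1.24, -9.06 without diaphragm replicate 3 and -5.54 without lung replicate 3), with the highest value in lung replicate 3, and for Lamp3 leaving out that lung library gave -5.37. Hopx, a gene of alveolar type 1 cells and also of muscle, overlapped between the tissues (-0.83 ± 0.56).

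The promoter of Sftpb is shown as an example of a gene of this epithelium, since NKX2-1 acts on surfactant promoters. In the 250 bases before its start, from RefSeq on GRCm38.p6 (chr6:72304360-72304609, plus strand), capitals mark CTCAAG, a core of the NKX2-1 site, searched on both strands.
Sftpb: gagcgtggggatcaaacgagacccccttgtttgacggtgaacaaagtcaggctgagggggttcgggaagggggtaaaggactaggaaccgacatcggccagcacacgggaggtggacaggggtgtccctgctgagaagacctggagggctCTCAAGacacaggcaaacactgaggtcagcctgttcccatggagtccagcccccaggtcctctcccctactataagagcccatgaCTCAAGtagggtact
It held 2 copies. The letters were found in 13.33% of the 32851 promoters, in 20% of the 25 epithelial-list promoters and in 13.58% of the 81 muscle-list promoters.

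Airway genes were more divided. Of 18 tested 12 were higher in lung and 3 in diaphragm (median log2 fold change -1.87, and -1.67 without diaphragm replicate 3). The split depended in part on diaphragm replicates 1 and 2. Without them 13 were higher in lung and 2 in diaphragm, with a median of -3.41. In Hoxa5-/- tissues 14 of 17 tested were higher in lung and 2 in diaphragm, with a median of -5.89. Foxa2, a factor of endodermal epithelium, was at 1.43, 3.08, 15.2 and 0.502 TPM in diaphragm and 117, 104, 97.0 and 106 TPM in lung (-4.12 ± 0.75, and -5.71 without diaphragm replicate 3), and Foxj1, the factor of multiciliated cells, at 1.02 to 3.06 TPM and 12.3 to 70.8 TPM (-3.96 ± 0.55). Scgb1a1, the club cell secretoglobin, had 161 counts over the lung libraries, 28.1 TPM in replicate 3 and 1.41 to 6.51 TPM in the others, and none in diaphragm, which makes it at least 36.8-fold higher in lung. Its fitted log2 fold change of -8.20 became -6.73 without lung replicate 3, and without diaphragm replicates 1 and 2 it was -8.31 and no longer called (edgeR adjusted p = 0.0716).

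The 3 members higher in diaphragm were genes of basal and neuroendocrine cells. Krt5 gave 7.79 ± 1.83 (6.90 without diaphragm replicate 2), a value carried by replicates 1 and 2, and without both replicates its log2 fold change was 2.30 with an edgeR adjusted p of 0.0527. Trp63, the basal cell factor, was at 8.73, 9.88, 4.84 and 7.70 TPM in diaphragm and 0.256 to 0.441 TPM in lung (4.77 ± 0.27), in every library higher in diaphragm. Calca, a neuropeptide gene, was at 1.87 to 2.75 TPM and 0.279 to 0.9495 TPM (2.19 ± 0.33). Cyp2f2, an enzyme of club cells, was at 28.6, 33.2, 0.434 and 0.343 TPM in diaphragm and 13.4, 21.5, 36.9 and 10.48 TPM in lung. For this gene diaphragm replicates 1 and 2 lay within the range of lung and replicates 3 and 4 below it, which did not hold for Nkx2-1. Cyp2f2 was not called with all libraries (-0.10 ± 1.09), and without diaphragm replicates 1 and 2 it was called higher in lung (-5.40, edgeR adjusted p = 0.00108).

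By fold change outside the lists, the genes furthest toward lung included products of the same epithelium. Sfta2 and Cxcl15, secreted products of distal epithelium, were at 133 to 322 TPM and 17.3 to 62.5 TPM in lung (-5.09 ± 0.95 and -5.14 ± 0.99, and -8.26 and -9.18 without diaphragm replicate 3), and the growth factor Areg gave -5.10 ± 0.69 (-6.70). The genes Dynlrb2 (-6.20 ± 1.20), Dnai3 (-5.03 ± 0.996, and -6.06 without diaphragm replicate 3) and Cdc20b (-5.03 ± 0.75), which belong to ciliated cells, and Sec14l3 (-6.54 ± 1.13), Tmem213 (-5.93 ± 1.27, -8.21) and Il18r1 (-5.38 ± 0.85) differed widely among lung libraries, with Dynlrb2 at 12.7, 33.1, 79.3 and 3.26 TPM. Without lung replicate 3, the highest for these genes, the values were -5.24 for Dynlrb2 (-6.86 without diaphragm replicate 1), -4.21 for Dnai3, -5.35 for Sec14l3, -4.54 for Tmem213 and -4.51 for Il18r1. The count ratios of lung over diaphragm were 35.0 (95% interval 11.7 to 172) for Pla2g1b and 54.9 (95% interval 18.6 to 268) for Retnla, all 3 diaphragm counts of the latter lying in replicate 3, and Gm21060 was at least 7.77-fold higher in lung. The fitted values of Pla2g1b (-4.98) and Retnla (-5.70) became -8.08 and -8.80 without diaphragm replicate 3, and that of Retnla -4.20 without lung replicate 3, and -4.90 with no call without diaphragm replicates 1 and 2 (edgeR adjusted p = 0.0672). By difference in level, Sftpc was followed by Actb, Ptma, Eef1a1 and Tubb5, of which Ptma (-1.27 ± 0.11) and Tubb5 (-0.61 ± 0.09) were called and Actb (-0.50 ± 0.08) and Eef1a1 (0.04 ± 0.07) were not. Tubb5 fell under the fold minimum without diaphragm replicate 1 (-0.58), diaphragm replicate 4 (-0.57), lung replicate 1 (-0.56) or both diaphragm replicates 1 and 2 (-0.56).

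**Figure D3:**
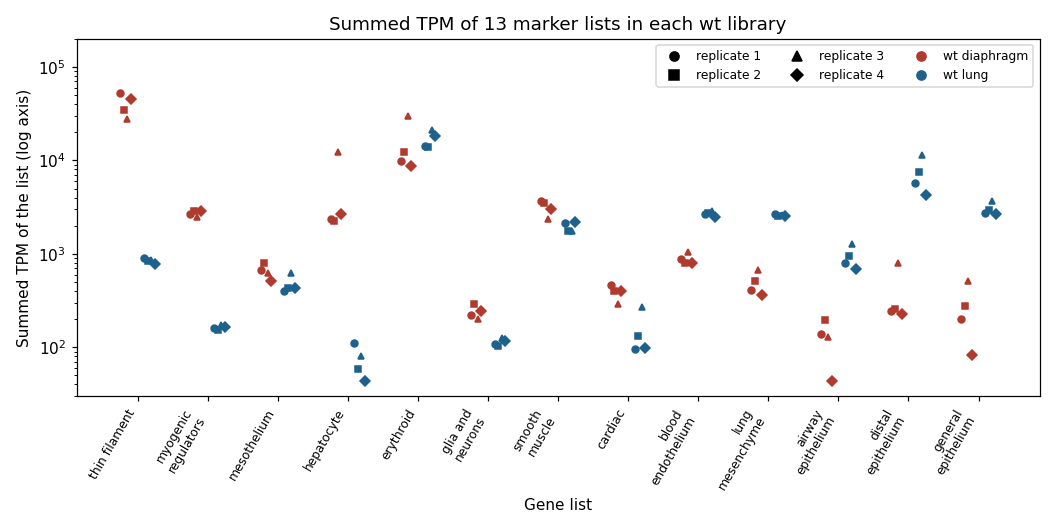
Summed TPM of 13 cell type lists in each wt library on a log axis, with a marker shape for each replicate number and a colour for each tissue. Epithelial and lung mesenchyme sums lie higher in lung, with diaphragm replicate 3 the nearest to lung in all of these but the airway list, the hepatocyte sum is 2223 to 12383 in diaphragm and 43.8 to 110 in lung, and the sums of mesothelium and smooth muscle lie close together.

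Mesenchymal factors of the lung were higher there. Of 22 genes 15 were higher in lung and 4 in diaphragm (median log2 fold change -2.30, and -2.60 without diaphragm replicate 3). Tbx4, the T-box factor of lung mesenchyme, was at 3.45, 5.19, 44.0 and 3.35 TPM in diaphragm and 321, 306, 298 and 299 TPM in lung (-4.17 ± 0.81, and -5.94 without replicate 3). Foxf1, a target of hedgehog signalling in visceral mesenchyme, was at 15.3, 28.9, 41.4 and 9.37 TPM and 255, 238, 183 and 233 TPM (-2.97 ± 0.38). The hedgehog targets Ptch1 (-2.51 ± 0.26), Gli1 (-2.11 ± 0.27) and Hhip (-3.64 ± 0.39), the epithelial growth signal Fgf10 (-2.24 ± 0.25) and Wnt2 (-3.73 ± 0.54, and -4.78 without replicate 3) lay on the same side.

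The 4 members higher in diaphragm were Wnt2b, a relative of Wnt2 (1.71 ± 0.19), the homeobox factors Nkx6-1 and Barx1, and Mfap5, a microfibril protein (3.71 ± 0.40). Nkx6-1 was at 7.08, 14.1, 1.60 and 3.83 TPM in diaphragm and 0.0761 to 0.215 TPM in lung (5.67 ± 0.73, and 5.05 without diaphragm replicate 2), and Barx1, a factor of foregut mesenchyme, at 10.99 to 17.7 TPM and 0.602 to 1.37 TPM (3.97 ± 0.27). Among branching signals, 7 of 16 were higher in lung and 5 in diaphragm. Shh, the hedgehog ligand of the epithelium, was at 1.03, 4.02, 9.58 and 0.0697 TPM and 76.9, 76.1, 98.1 and 75.4 TPM (-4.20 ± 0.77, and -5.30 without replicate 3), whereas the FGF feedback inhibitors Spry1 (0.66 ± 0.10) and Spry2 (0.66 ± 0.09) and the BMP antagonists Nog (1.03 ± 0.14) and Grem1 (2.41 ± 0.47) were higher in diaphragm.

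T-box genes were called in both directions. Of 10 tested, 3 were higher in diaphragm and 4 in lung, beside 20.9% and 15.6% of all tested genes. Tbx15, a factor of muscle fibres and mesenchyme, was at 133, 133, 102 and 146 TPM in diaphragm and 0.180, 0.0501, 0.0956 and 0.138 TPM in lung (10.36 ± 0.24, edgeR adjusted p = 7.07e-09), one of the largest differences of any transcription factor outside the myogenic list. Tbx18 (3.19 ± 0.33) and Tbx1 (1.36 ± 0.14) were the other members higher in diaphragm. Tbx2 at 543 to 595 TPM in lung (-2.36 ± 0.23), Tbx5 (-3.17 ± 0.41, and -3.79 without diaphragm replicate 3), Tbx3 (-0.77 ± 0.10) and Tbx4 (-4.17, and -5.94) were higher in lung. The 4 tested Iroquois genes were all higher in lung, from Irx3 (-4.05 ± 0.72, and -5.66 without diaphragm replicate 3) to Irx1 (-4.57 ± 0.95, and -7.42).

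**Figure D4:**
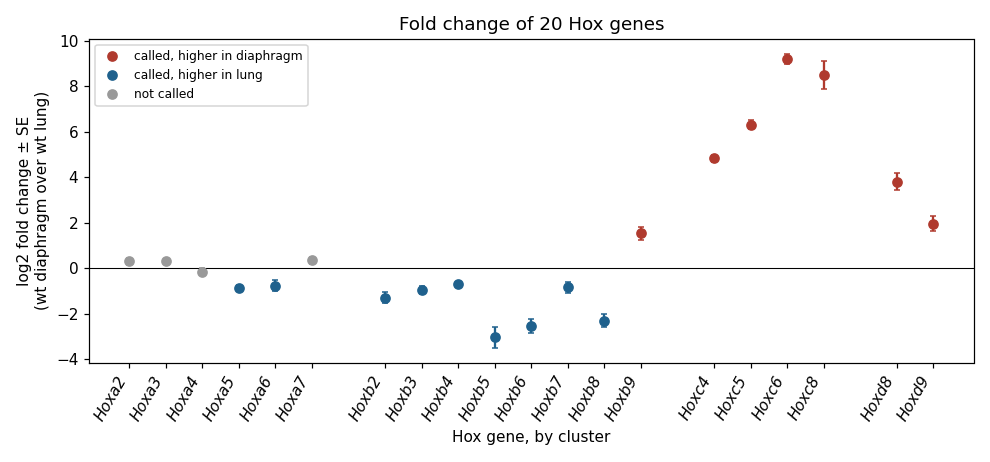
Log2 fold change ± SE (diaphragm over lung) of 20 Hox genes in the order of each cluster. The HoxC genes lie far above 0 and most HoxB genes below it, while the HoxA genes shown lie between -0.85 and 0.35.

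Hox genes, which give cells their position along the body axis, differed by cluster. Of 39 genes 21 reached 1 TPM in either tissue, and 8 of these were higher in diaphragm and 9 in lung (median log2 fold change 0.31, which is below 0 with a minimum of 5 TPM or with limma on log2 TPM). HoxC genes were low in lung in every library. Hoxc6 (chr15:102906689-102920313 in GRCm39) was at 43.9, 42.0, 37.4 and 50.9 TPM in diaphragm and 0.106, 0.0594, 0.0755 and 0.0819 TPM in lung (9.21 ± 0.22, edgeR adjusted p = 8.23e-09), Hoxc5 at 18.96 to 25.4 TPM and 0.245 to 0.461 TPM (6.30 ± 0.20) and Hoxc4 at 41.1 to 51.2 TPM and 1.69 to 2.38 TPM (4.83 ± 0.15). Hoxc8 had 146 counts in diaphragm and none in lung, which makes it at least 70.9-fold higher.

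The HoxB genes lay on the other side. Hoxb5 was at 6.43, 6.49, 25.9 and 6.65 TPM in diaphragm and 138, 113, 73.5 and 131 TPM in lung (-3.03 ± 0.46, and -3.80 without diaphragm replicate 3), Hoxb6 at 3.76 to 8.28 TPM and 22.8 to 44.0 TPM (-2.53 ± 0.29) and Hoxb8 at 1.06 to 3.15 TPM and 9.88 to 13.7 TPM (-2.30 ± 0.28). Hoxb2 (-1.29 ± 0.23), Hoxb3 (-0.94 ± 0.17), Hoxb4 (-0.71 ± 0.13) and Hoxb7 (-0.83 ± 0.25) were also higher in lung, and Hoxb9 alone in this cluster was higher in diaphragm (1.53 ± 0.28), at 1.35 to 2.08 TPM.

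In the HoxA cluster Hoxa5 had the highest mean TPM of all Hox genes in both tissues, at 60.6, 73.5, 94.7 and 60.1 TPM in diaphragm and 171, 156, 144 and 170.4 TPM in lung (-0.85 ± 0.12). Hoxa2 (0.31 ± 0.15), Hoxa3 (0.31 ± 0.10), Hoxa4 (-0.14 ± 0.16) and Hoxa7 (0.35 ± 0.15) overlapped between tissues. Hoxa6 was called higher in lung (-0.77 ± 0.25), a call lost without diaphragm replicate 1 (-0.76), 2 (-0.64) or 4 (-0.64) or lung replicate 4 (-0.72), and without both diaphragm replicates 1 and 2 (-0.57). Of the HoxD cluster Hoxd8 (3.81 ± 0.36) and Hoxd9 (1.95 ± 0.33) were higher in diaphragm, at 8.49 to 10.3 TPM and 1.23 to 2.17 TPM. The other 18 Hox genes had a mean below 1 TPM in both tissues. Among the HOX partners of the TALE family, Pbx3 (-0.69 ± 0.08) and Pbx4 (-1.20 ± 0.37) were higher in lung and Meis2 (0.92 ± 0.09) and Pknox2 (1.08 ± 0.07) in diaphragm.

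Genes of retinoic acid signalling, which patterns both organs, were called more often higher in diaphragm than in lung on the TMM scale. Of 19 tested 10 were higher in diaphragm and 3 in lung, beside 20.9% and 15.6% of all tested genes. The count in lung was thus near the share over all genes. With library totals the counts were 7 and 6, and without diaphragm replicates 1 and 2 they were 8 and 3. Cyp26a1, which degrades retinoic acid, was at 14.1, 9.08, 12.7 and 13.8 TPM in diaphragm and 0.212, 0.284, 0.120 and 0.261 TPM in lung (6.08 ± 0.28), and the receptor gene Rxrg was at 55.3, 51.7, 49.7 and 63.3 TPM and 0.843, 0.491, 0.676 and 1.13 TPM (6.46 ± 0.21). The binding protein Crabp1 (2.41 ± 0.13) and the synthesizing enzyme Aldh1a3 (3.53 ± 0.12) were also higher in diaphragm. The enzyme Aldh1a1 (-1.18 ± 0.14), the receptor Rarg at 86.5 to 115 TPM in lung (-1.24 ± 0.13) and Lrat (-1.84 ± 0.34) were higher in lung, and the receptor Rara did not reach the fold minimum (0.28 ± 0.06).

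Genes of blood vessels were mostly higher in lung. Of 23 blood endothelial genes 19 were higher in lung and 1 in diaphragm (median log2 fold change -1.29). With diaphragm replicates 1 and 2 left out, 17 were higher in lung. Cdh5, the cadherin of endothelium, was at 137, 122, 145 and 136 TPM in diaphragm and 376, 393, 417 and 347 TPM in lung (-1.20 ± 0.09), Pecam1 at 50.5 to 60.9 TPM and 146 to 200.1 TPM (-1.27 ± 0.11) and the apelin receptor Aplnr at 37.7 to 72.7 TPM and 265 to 279 TPM (-2.12 ± 0.17). Gpihbp1, which anchors lipoprotein lipase in capillaries of muscle and fat, was the member higher in diaphragm, at 17.03 to 27.002 TPM and 7.6004 to 15.52 TPM (1.19 ± 0.24).

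Lymphatic genes were split, with 4 of 10 higher in diaphragm and 3 in lung, beside 20.9% and 15.6% of all tested genes. Prox1, the lymphatic factor that muscle also expresses, was at 14.3, 17.1, 17.96 and 19.7 TPM in diaphragm and 3.29, 3.29, 2.58 and 3.86 TPM in lung (2.71 ± 0.13), and Reln (3.29 ± 0.23), Pdpn (0.71 ± 0.13) and the chemokine Ccl21a (1.22 ± 0.15) were also higher there. Mmrn1 (-1.97 ± 0.25) and Nr2f2 (-1.40) were higher in lung, as was Stab2 (-1.47 ± 0.50), a call that held without diaphragm replicate 3 (-2.41) and failed without any 1 of the other 3 diaphragm libraries (-1.24, -1.28 and -1.26), without both diaphragm replicates 1 and 2 (-0.90) or any 1 of the lung libraries (-1.51, -1.52, -1.37 and -1.496). The scavenger receptor Lyve1 was not called (-0.37 ± 0.16).

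Macrophage genes were higher in diaphragm. Of 16 tested 13 were higher there and none in lung, with a median log2 fold change of 1.19. Csf1r, the receptor for the macrophage growth factor, was at 44.8, 49.5, 36.3 and 41.2 TPM in diaphragm and 19.6, 19.8, 20.4 and 17.4 TPM in lung (1.46 ± 0.10), the complement gene C1qb at 126, 136, 111 and 107 TPM and 49.3, 49.9, 54.2 and 47.2 TPM (1.57 ± 0.10) and Cx3cr1 at 24.9 to 33.1 TPM and 10.9 to 13.8 TPM (1.4997 ± 0.12). The exception among abundant members was Lyz2, a lysozyme that distal lung epithelium also makes, at 41.7 to 75.2 TPM and 52.3 to 147 TPM, which overlapped (-0.44 ± 0.31).

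Red cell genes fell into 2 sets, and the list's median log2 fold change of 0.32 became -0.20 without diaphragm replicate 3. Globins such as Hbb-bs, at 4998, 5701, 14020.0 and 4348 TPM in diaphragm and 6430.0, 6804, 10952 and 7976 TPM in lung (0.14 ± 0.35), were not called, and 8 of 13 members were not called in all. Genes of nucleated precursors were higher in diaphragm, with the erythroid factor Klf1 at 13.4, 20.9, 108.9 and 13.5 TPM and 1.70, 1.59, 2.26 and 2.95 TPM (4.4997 ± 0.77, and 3.24 without diaphragm replicate 3). Slc4a1 (3.51 ± 0.63, 2.44), Epb42 (3.59 ± 0.66, 2.55) and Gata1 (3.65 ± 0.69, 2.49) did the same, with replicate 3 the highest in each.

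Liver transcripts were higher in diaphragm as well. All 17 hepatocyte genes were higher in diaphragm, with a median log2 fold change of 7.68, and 6.72 without diaphragm replicate 3. Alb, albumin, was at 902, 836, 4566 and 1051 TPM in diaphragm and 23.4, 2.37, 4.38 and 1.88 TPM in lung (8.09 ± 1.09, 7.13 without diaphragm replicate 3 and 9.601 without lung replicate 1), and Afp, alpha-fetoprotein, at 442, 404, 2539 and 492 TPM and 10.97, 1.004, 1.49 and 1.38 TPM (8.26 ± 1.11, 7.15 and 9.84). All diaphragm libraries thus held these transcripts, not replicate 3 alone. Hnf4a, the hepatocyte factor, was at 2.17 to 19.1 TPM in diaphragm and 0.0247 to 0.0872 TPM in lung (7.23 ± 0.98, and 6.01 without diaphragm replicate 3). The liver makes blood cells at this stage and lies against the diaphragm, and the part of adjoining liver in these values was not tested.

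Genes of nerve and Schwann cells were higher in diaphragm. Of 16 tested 15 were higher there and 1 in lung (median log2 fold change 2.71). Foxd3, a neural crest and glial factor, was at 27.6, 31.5, 23.6 and 27.4 TPM in diaphragm and 0.507, 0.243, 0.360 and 0.445 TPM in lung (6.43 ± 0.20) and Sox10, the glial lineage factor, at 19.1, 27.8, 15.8 and 17.9 TPM and 1.96, 1.08, 1.10 and 1.95 TPM (4.03 ± 0.26). Neuronal genes were low, with the tubulin Tubb3 at 11.4, 20.7, 7.54 and 11.2 TPM and 3.74, 2.21, 2.62 and 2.91 TPM (2.44 ± 0.31). Ret, a receptor of enteric neuron precursors, was the member higher in lung (-1.35 ± 0.40). Since motor neuron cell bodies lie in the spinal cord, their transcripts are not sampled here, and diaphragm replicate 2, one of the pair that held Krt5, had the highest level of Tubb3 and Sox10.

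The count of smooth muscle genes on each side depended on diaphragm replicates 1 and 2. Of 14 tested 6 were higher in diaphragm and 5 in lung, with a median log2 fold change of -0.02, and without these replicates 3 were higher in diaphragm and 8 in lung, with a median of -0.90. Acta2, smooth muscle alpha-actin, which fetal skeletal muscle also uses, was at 1377, 1421, 1031 and 1157 TPM in diaphragm and 1095, 893, 835 and 1078 TPM in lung (0.66 ± 0.13), a call lost without diaphragm replicates 1 and 2 (0.48). Myh11, the smooth muscle myosin, was at 96.4, 156, 39.1 and 53.5 TPM and 165, 117, 128 and 169.9 TPM, highest in diaphragm replicates 1 and 2, and overlapped (-0.45 ± 0.37), with a call higher in lung without diaphragm replicate 2 (-0.86) or without both (-1.33). Actg2 was at 214, 332, 82.3 and 106 TPM and 263, 198, 174 and 309.5 TPM (-0.06 ± 0.40) and was called higher in lung without both (-1.01). Myocd, the smooth muscle coactivator (-1.57 ± 0.32), and the myosin kinase Mylk (-2.01 ± 0.18) were higher in lung, and Des, desmin, which skeletal muscle shares, was higher in diaphragm (4.88 ± 0.21).

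Cardiac and cartilage lists were mixed too. Of 11 cardiac genes 3 were higher in diaphragm and 3 in lung, beside 20.9% and 15.6% of all tested genes. Those higher in diaphragm were Myl2 (9.99 ± 0.52, and 10.96 without lung replicate 3), Myl3 (7.73 ± 0.23) and Myh6 (2.05 ± 0.39, and 2.65), which slow or embryonic skeletal muscle also uses. Nppa, an atrial marker, had 1 count in diaphragm and 13 in lung. Of 16 cartilage genes 11 were higher in lung and 4 in diaphragm (median log2 fold change -1.34). Col2a1, the main collagen of cartilage, was at 4.71, 4.74, 8.04 and 5.09 TPM in diaphragm and 33.3, 25.4, 15.1 and 41.1 TPM in lung (-2.04 ± 0.30), whereas Acan, aggrecan, was at 5.49, 4.22, 3.48 and 8.33 TPM and 0.913, 0.704, 0.656 and 0.502 TPM (3.26 ± 0.32). Sox6 (1.16 ± 0.08), Col11a1 (2.67 ± 0.18) and Comp (1.58 ± 0.21) were the other members higher in diaphragm.

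Elastic fibre genes were divided between called and not called. Over all tested genes 36.4% were called, 20.9% higher in diaphragm and 15.6% higher in lung. Of 19 tested 10 were not called, 7 were higher in diaphragm and 2 in lung (median log2 fold change 0.28, which turned to -0.04 with limma on log2 TPM). With diaphragm replicates 1 and 2 left out, 5 were higher in diaphragm and 3 in lung. Eln, elastin, was at 429, 197, 238 and 199 TPM in diaphragm and 446, 413, 767 and 397 TPM in lung and overlapped (-0.61 ± 0.31), with a call higher in lung without diaphragm replicate 1 (-0.98) or without replicates 1 and 2 (-0.90). Fbln2 was higher in diaphragm (3.35 ± 0.18), and Mfap4 (-0.90 ± 0.21) and Ltbp2 (-1.24 ± 0.22) were higher in lung.

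Genes of the cell cycle were mostly higher in lung, each by less than a factor of 2. Of 22 tested 14 were higher in lung and 1 in diaphragm (median log2 fold change -0.64). Top2a, the topoisomerase of dividing cells, was at 121, 157, 199 and 148 TPM in diaphragm and 319, 329, 303 and 353 TPM in lung (-0.76 ± 0.12), with replicate 3 the highest diaphragm library. Without diaphragm replicates 1 and 2 4 members were called higher in lung, and without replicate 3 there were 15. Ccne1, a cyclin of the start of S phase, was the exception at 102, 156, 164 and 133 TPM and 72.6, 68.5, 50.8 and 77.6 TPM (1.34 ± 0.15).

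Of 9 tested genes of withdrawal from the cell cycle 4 were higher in diaphragm, 2 were higher in lung and 3 were not called, with a median log2 fold change of -0.09. Cdkn1a, a cyclin kinase inhibitor, was at 333, 287, 234 and 323 TPM in diaphragm and 7.06, 9.02, 13.7 and 7.39 TPM in lung (5.30 ± 0.25, edgeR adjusted p = 2.96e-07), Cdkn1c at 2183, 2467, 2109.8 and 2328 TPM and 364, 355, 406 and 379 TPM (2.90 ± 0.08) and Rb1 at 85.2 to 108 TPM and 15.9 to 22.1 TPM (2.67 ± 0.13). Rbl1, a relative of Rb1, was among those higher in lung (-0.95 ± 0.11).

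Regulators of splicing were found on both sides. Of 17 tested 5 were higher in diaphragm and 7 in lung. Rbm24, a splicing factor of striated muscle, was at 211, 206, 167 and 232 TPM in diaphragm and 5.11, 5.68, 6.77 and 5.04 TPM in lung (5.49 ± 0.16), and Rbfox1 (6.97 ± 0.31) and Rbm20 (4.56 ± 0.11) lay on the same side. The epithelial factors Esrp1 (-3.74 ± 0.66, and -4.33 without diaphragm replicate 3) and Esrp2 (-3.33 ± 0.50, and -4.02) were higher in lung, as was the general repressor Ptbp1 at 168 to 257 TPM and 431 to 553 TPM (-1.04 ± 0.13).

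Imprinted growth genes were higher in diaphragm almost throughout. Of 15 tested 13 were higher there and none in lung (median log2 fold change 1.99), beside 20.9% and 15.6% of all tested genes. Libraries did not overlap in any of the 15, nor in 55.6% of all tested genes. H19 was at 18965, 16319, 13862 and 16664 TPM in diaphragm and 5330.0, 5682, 7871 and 5517 TPM in lung (1.74 ± 0.16), and Igf2, the growth factor encoded beside it, at 479, 504, 427 and 443 TPM and 149, 129, 146 and 156 TPM (1.99 ± 0.09). Members of several imprinted regions took part, such as Peg10 (4.40 ± 0.27), Meg3 (2.98 ± 0.14), Ndn (2.25 ± 0.09) and Plagl1 (1.92 ± 0.11). Grb10 (0.42 ± 0.08) and Igf2r (0.33 ± 0.06) stayed under the fold minimum.

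Housekeeping sets gave a scale for these differences. Of 81 cytosolic ribosomal protein genes 1 was higher in diaphragm and none in lung, with a median log2 fold change of 0.04, and that gene was Rpl3l, the muscle form of Rpl3 (4.46 ± 0.66, and 5.18 without lung replicate 1). Nuclear genes of the respiratory chain were moderately higher in diaphragm, 46 of 93 by call and 1 higher in lung (median 0.58), a median close to the fold minimum, and with library totals the number called higher in diaphragm was 18. The muscle isoforms Cox8b (9.88 ± 0.45) and Cox6a2 (7.96 ± 0.61, and 9.57 without lung replicate 3) stood far above the rest, and Cox4i2, an isoform used in lung, was the gene higher in lung (-2.40 ± 0.28).

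The same pair of tissues from Hoxa5-/- embryos shares no library with the wt comparison. In these embryos Hoxa5, from which the null allele still yields countable reads, was at 20.2 ± 5.55 TPM in diaphragm and 42.0 ± 7.82 TPM in lung (SD, n = 4), and in wt at 72.2 ± 16.2 TPM and 160.4 ± 12.98 TPM. With edgeR 3678 of 18850 genes were higher in Hoxa5-/- diaphragm (19.5%) and 3143 higher in Hoxa5-/- lung (16.7%). Of 18371 genes tested in both genotypes, 3264 were called higher in diaphragm in both, which is 86.1% of the 3792 wt calls and 92.0% of the 3547 Hoxa5-/- calls, and 2435 were called higher in lung in both, 85.1% of 2863 and 78.6% of 3098. A call in the opposite direction was found for 11 and 1 of the wt calls. In Hoxa5-/- lung replicate 4 stood apart, with its 20 most abundant genes taking 17.6% of counts, and without it 3587 genes were called higher in diaphragm and 3123 in lung. The Hoxa5-/- diaphragm libraries were uneven as well. From replicate 1 to replicate 4 the summed TPM of hepatocyte genes was 2944, 528, 15222 and 12846. That of red cell genes was 10694, 6221, 33897 and 20880. What this unevenness adds to the comparisons of the genotypes was not tested.

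A test of the difference of tissue effects between the genotypes, added after the data had been seen, called 142 of 19463 genes (0.73%) with edgeR on 16 libraries. Genes of the glia and neuron list were among these. Tubb3 had a log2 fold change of 2.44 ± 0.31 in wt and -1.54 ± 0.49 in Hoxa5-/- tissues (adjusted p of the difference 0.00789), and Fabp7 had 1.42 and -1.60 (adjusted p = 0.000956). In Hoxa5-/- tissues 6 of 14 tested members of the list were higher in diaphragm and 6 in lung.

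Differences of this kind were also found for smooth muscle genes. Myh11 gave -0.45 in wt and -5.02 in Hoxa5-/- tissues (edgeR adjusted p of the difference 0.000552), Actg2 -0.06 and -4.92 (adjusted p = 0.00137) and Myocd -1.57 and -4.72 (adjusted p = 0.00338). The level of Myh11 was 86.2 ± 52.3 TPM in wt and 4.26 ± 1.12 TPM in Hoxa5-/- diaphragm, and 145 ± 26.1 TPM and 157 ± 28.2 TPM in lung (SD, n = 4), so that the wider gap between the genotypes lay in diaphragm. Values of Myh11 in wt rest in part on diaphragm replicates 1 and 2, without which its wt log2 fold change was -1.33, and -0.86 without replicate 2 alone, and that of Actg2 was -1.01 without both.

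Some factors of foregut and epithelium were called as well. Sox2 gave -1.77 in wt and -6.21 in Hoxa5-/- tissues (edgeR adjusted p = 0.0158), Foxf2 -3.53 and -8.91 (adjusted p = 0.00338) and Esrp1 -3.74 and -9.70 (adjusted p = 0.0138). The wt values without diaphragm replicate 3 were -4.15 for Foxf2 and -4.33 for Esrp1. The wt call of Sox2 held without diaphragm replicate 2 (-2.49), 3 (-1.63) or 4 (-1.39), or lung replicate 3 (-1.87), and it was lost without diaphragm replicate 1 (-1.79) and without lung replicate 1, 2 or 4 (-1.73, -1.79 and -1.70). Col25a1, a collagen that guides motor axons into muscle, went the other way, with -1.11 ± 0.10 in wt and 0.45 ± 0.09 in Hoxa5-/- tissues (adjusted p = 0.000201). The median log2 fold change of the general epithelial list was -3.70 in wt and -6.61 in Hoxa5-/- tissues. The summed TPM of these genes was 67.3 to 165 in Hoxa5-/- diaphragm and 83.2 to 507 in wt diaphragm, and the part of such admixture in these differences was not tested.

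**Figure D5:**
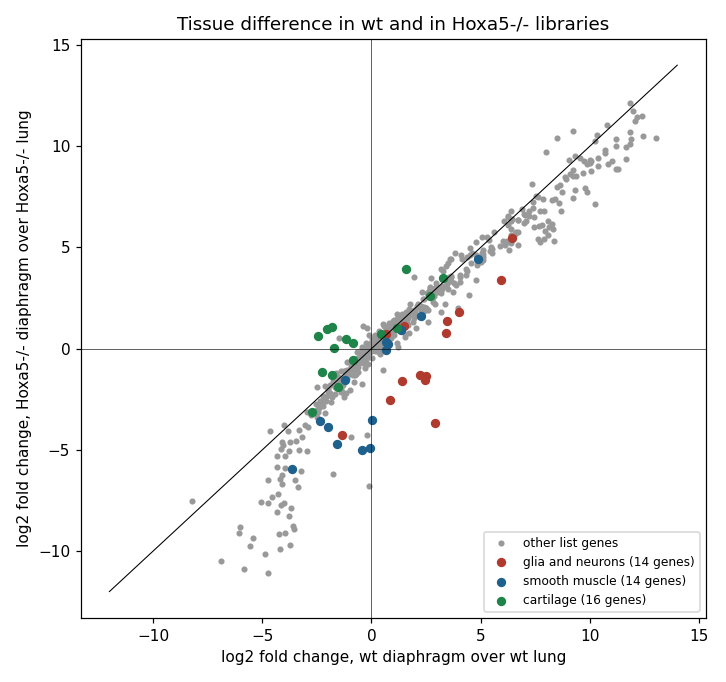
Log2 fold change (diaphragm over lung) of 738 genes of the lists in wt (x axis) and Hoxa5-/- tissues (y axis), with a line of equal values. Most genes with positive values lie near the line, while genes far below 0 in wt and the coloured genes of glia and neurons (14) and of smooth muscle (14) lie mostly below it, and those of cartilage (16) mostly above it. The summed TPM of the cartilage list was 935 in Hoxa5-/- diaphragm replicate 3 and 231, 187 and 206 in replicates 1, 2 and 4. What that library adds to the cartilage points was not tested.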

How the data were processed

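Raw counts and TPM per gene, as deposited, were read for the respiratory tissues. According to the methods and the submitters' processing notes, single-end reads were trimmed with Trim Galore 0.6.5, aligned with STAR 2.7.9a to GRCm39 and counted by featureCounts 2.0.3 on an Ensembl annotation curated for Hox genes. The authors computed TPM from these counts and exon lengths, and TPM worked out again from the deposited counts gave the same values to within 2.9e-11. Whether counting used the strand is not given in the sources used here, so reads of overlapping antisense genes cannot be told apart.

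Counts were fitted with edgeR 4.0.16 in R 4.3.3 (quasi-likelihood test, TMM, two-sided, Benjamini-Hochberg adjustment over all tested genes), on the 8 wt libraries and separately on the 8 Hoxa5-/- libraries. Genes needed a mean of at least 1 TPM in either tissue. Standard errors were taken from the fold change and its F statistic. Alternatives were DESeq2 1.42.0, limma 3.58.1 on log2(TPM + 1) and log2(TPM + 0.1), other scalings and filters, each library left out, and a replicate block. The fits were tested on simulated counts. Diaphragm libraries held a median of 29697499 counts and lung libraries 36089952, and intervals and bounds cover counting error only. A bound on a fold was computed against 3 counts over the empty group, scaled to the library sizes.

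Genes are named from 36 lists and 2 sets defined by symbol where a sentence describes the list, taking first those with the highest level or fold and those called against the majority. Tested Hox genes are named where reported here, with up to 12 protein-coding genes per direction outside the lists with the largest fold (mean of at least 5 TPM, no overlap) and up to 5 per direction with the largest difference in TPM. The comparison, the members and the lists were chosen with earlier results of these data known. Of 833 list entries 832 were found. The labels do not say whether libraries came from separate litters, so p-values measure the spread between these libraries. The check of replicate pairing is given with the alternatives. Results for some genes on the lists are not reported here. Promoter sequences came from RefSeq on GRCm38.p6 and were used only for their letters.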

Additional observations from a re-analysis of the deposited data

Results flagged for a closer look

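Among the 4 wt libraries of a tissue, a library was taken as outlying when its gap to the nearest other library exceeded Dixon's critical value at the 95% level for 4 samples, a limit that chance alone passes in about 1 in 20 groups, and the group reached 1 TPM. Over 275 named genes in both tissues 54 libraries passed it, of which 29 were diaphragm replicate 3 and 14 were lung replicate 3.

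Diaphragm replicate 3 was highest for genes of lung epithelium, with Nkx2-1 at 57.1 TPM, Sftpc at 322 TPM, Sftpb at 21.1 TPM, Sfta2 at 18.2 TPM, Cxcl15 at 2.84 TPM, Lamp3 at 1.76 TPM, Tmem213 at 1.39 TPM, Areg at 1.03 TPM, Slc34a2 at 1.03 TPM, Irx1 at 17.7 TPM and Irx3 at 19.9 TPM. It was also highest for genes of lung mesenchyme and its matrix, with Tbx4 at 44.0 TPM, Tbx2 at 147 TPM, Wnt2 at 17.3 TPM, Hoxb5 at 25.9 TPM, Col4a4 at 3.26 TPM and Col2a1 at 8.04 TPM.

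Liver and red cell genes were highest in the same library, with Alb at 4566 TPM, Afp at 2539 TPM, Hnf4a at 19.1 TPM, the sinusoid gene Stab2 at 8.48 TPM, Hbb-bs at 14020.0 TPM, Klf1 at 108.9 TPM, Gata1 at 32.8 TPM, Slc4a1 at 382 TPM and Epb42 at 31.3 TPM. Reln stood at 8.65 TPM there. Dcn (343 TPM) and Tnnc1 (1072 TPM) were lowest in it. What admixture of adjoining lung or liver adds to these values was not tested.

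Of the other diaphragm libraries, replicate 2 was outlying for Ret (4.05 TPM), Hgf (4.27 TPM) and Pdpn (74.5 TPM), and replicate 1 for Tnnc2 (3.66 TPM).

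Lung replicate 3 was highest for Retnla (33.3 TPM), Msln (24.2 TPM), Krt19 (334 TPM), Esrp2 (91.3 TPM), Shh (98.1 TPM), Eln (767 TPM), Rarg (115 TPM), H19 (7871 TPM) and Lrp4 (63.0 TPM). It was also highest for the muscle genes Ckm (6.76 TPM), Cox6a2 (5.62 TPM), Sln (2.81 TPM), Eno3 (40.7 TPM) and Dok7 (3.60 TPM). Lung replicate 1 was outlying for Alb (23.4 TPM) and Afp (10.97 TPM), replicate 2 for Meg3 (126 TPM), Aldh1a1 (28.9 TPM) and Gata1 (1.002 TPM), and replicate 4 for Epb42 (2.01 TPM) and Wnt2b (7.24 TPM).

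The difference between the tissues itself differed between Hoxa5-/- and wt embryos for 19 named genes at an edgeR adjusted p under 0.05 of the interaction, a test chosen after the data were seen. Given as log2 values of Hoxa5-/- minus wt, it was -3.95 for Tubb3, -2.98 for Fabp7, -2.90 for Ret and -2.19 for Sox10 among genes of nerve and glia. For smooth muscle it was -4.83 for Actg2, -4.55 for Myh11, -3.12 for Myocd and -1.84 for Mylk. For factors of epithelium and mesenchyme it was -5.92 for Esrp1, -5.35 for Foxf2, -5.16 for Nkx6-1, -4.41 for Sox2, -3.45 for Tcf21, -2.07 for Foxf1, -1.94 for Barx1 and -1.11 for Slit3. Among lymphatic genes it was -1.85 for Mmrn1 and 1.499 for Lyve1, and for Col25a1 it was 1.59. Lyve1 and Col25a1 alone of these 19 thus had a signed log2 fold change of diaphragm over lung that was higher in Hoxa5-/- than in wt embryos. A signed value does not say in which genotype the gap between the tissues was larger.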

How the results depend on the processing

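The 3959 genes higher in diaphragm became 2611 with a minimum of 5 TPM. The 2956 genes higher in lung became 4690 with library totals, 4856 with limma on log2(TPM + 1), 5400 with limma on log2(TPM + 0.1) and 5449 without a minimum fold, and the 3143 in Hoxa5-/- tissues became 5471 without a minimum fold. At 8-fold the counts of 1222 and 371 became 1976 and 569 without a filter, 703 and 235 with a minimum of 5 TPM, and 435 and 167 with limma on log2(TPM + 1), whose larger pseudocount shrinks folds of low genes. DESeq2 gave 3860 and 2830, its size factors in edgeR 3989 and 2922, a minimum of 10 counts in 4 libraries 4041 and 3027, and 1 fit of 16 libraries 3970 and 2942.

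With each library left out the counts were 3776 to 4042 higher in diaphragm and 2768 to 3086 in lung, 1201 to 1242 and 314 to 441 at 8-fold, and 3445 to 3761 and 2946 to 3123 in Hoxa5-/- tissues. Deviations of same-numbered wt diaphragm and lung libraries had an r of -0.17 to 0.03 over 4 pairs, and Xist differed within 3 of these pairs, so the wt numbers were taken as names only. In Hoxa5-/- tissues the r was 0.236, 0.300 and 0.250 for pairs 1 to 3 and -0.0968 for pair 4, and Xist differed within 1 of 4 pairs, so pairing of some Hoxa5-/- libraries is possible and was not used. A replicate block gave 3848 and 2844 genes in wt, 1202 and 375 at 8-fold, and 3638 and 3098 genes in Hoxa5-/- tissues.

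Of 38 list medians 24 were above 0, 20 with library totals and 17 with limma. The median of the list of diaphragmatic defects went from 0.23 to -0.0116 with library totals, -0.0279 with a minimum of 5 TPM, and -0.0693 and -0.0798 with limma at pseudocounts of 1 and 0.1. That of elastic fibres went from 0.28 to -0.0362 and -0.0364 with the limma fits, and that of Hox genes from 0.31 to -0.41 with a minimum of 5 TPM and to -0.00169 and -0.00196 with the limma fits. Over the alternatives 632 values of list medians stayed within the spread of replicates and 81 moved beyond it. The other 9 changed sign from a main median larger than that spread, and sign changes of smaller medians are not counted in these 9. Of 245 named genes called, 18 lost the call in 1 or more of 19 settings and none changed sign with a call. In the fit of 16 libraries Col2a1 (-2.04) and Hoxa6 (-0.77) were not called, and without diaphragm replicates 1 and 2 Retnla (-4.90, from -5.70), Scgb1a1 (-8.31, from -8.20) and Tubb5 (-0.56, from -0.61) also lost their calls. The causes were not tested. Lung counts of 0 to 3 limit the fold of muscle genes, which is why bounds or count ratios are given for them.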
